A study of Mus musculus with 4 samples.

Results

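The genes described here are 37 mouse genes of the G2/M programme, the set that a cell transcribes as it prepares for and passes through mitosis. They were taken by symbol from a written list of cyclins, kinases, checkpoint proteins, kinetochore subunits, motors and spindle proteins, and all 37 were found among the 53715 genes of the count table. The choice rested on their roles and applied no threshold to measured values, though earlier results of these data were known when it was made. RNA was sequenced from 4 libraries of C57BL/6 mouse cells labelled as primordial germ cells of E12.5 embryos, enriched with magnetic beads and used at 1000 cells per library in a modified Smart-seq2 protocol with Tn5 tagmentation. The compared groups were 2 libraries labelled as Rif1 knockout (Rif1_KO) and 2 libraries labelled wild type (WT). RIF1 is a chromatin protein that times DNA replication and directs the repair of broken DNA. The knockout allele, any Cre driver, the embryos pooled, their sex and the antigen of the enrichment are not given in the sources used here. Nor do the labels say whether the libraries of a genotype came from separate embryos, so a p-value here reflects only how far these libraries vary, possibly for technical reasons.

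Entry into mitosis is driven by the kinase CDK1 bound to cyclin A or B and switched on by CDC25 phosphatases. Aurora and Polo-like kinases then build the spindle, the checkpoint proteins hold anaphase until every kinetochore is attached, and the anaphase-promoting complex with CDC20 ends mitosis by degrading cyclin B. Transcripts of these proteins are low in resting cells and in G1 and high in G2 and M phase, which is why genes such as Mki67 and Top2a serve as proliferation markers, and primordial germ cells proliferate in the gonad until males arrest and females enter meiosis.

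Elements known from promoters of this programme are the CCAAT box, bound by NF-Y, and the cell cycle homology region (CHR), bound by MuvB complexes. Both were searched for in the 250 bases before the annotated start, on both strands, as CCAAT or ATTGG and as TTTGAA or TTCAAA, where matches may share bases at their ends. RefSeq promoters (GRCm38.p6) were matched for 31 of the 37 genes, without Aurkb, Ccna2, Cdc25c, Incenp, Kif20a and Tpx2. A CCAAT box was present in 24 of the 31 (77.4%), against 34.5% of 27025 RefSeq promoters of the same length, and 54.8% held at least 2, against 10.5%. The CHR word was present in 9 of the 31 (29.0%), against 16.3% of all promoters, and both words together in 25.8%, against 5.73%. In a list of other mitotic genes 50% of the promoters held a CCAAT box, 25% at least 2 and 30.4% the CHR word. In a list of S phase genes 66.7% held a CCAAT box, 28.6% at least 2 and 14.3% the CHR word. The shares describe letters in a window and not occupied sites. Matches that begin more than 160 bases before the start count in these shares but are not printed below. Among them are the only CHR word of Ccnb2, a CHR word of Top2a and CCAAT boxes of Cdk1, Top2a and Hmmr. The 160 bases before the start are printed below for Cdk1 and Ccnb2, the kinase and cyclin at the centre of the programme, for Top2a, the proliferation marker, for Bub1 and Kif11, called higher by DESeq2, and for Hmmr, whose WT libraries lay furthest apart, with CCAAT boxes and CHR words in capitals.
Cdk1, chr10:69352913-69353072, minus strand: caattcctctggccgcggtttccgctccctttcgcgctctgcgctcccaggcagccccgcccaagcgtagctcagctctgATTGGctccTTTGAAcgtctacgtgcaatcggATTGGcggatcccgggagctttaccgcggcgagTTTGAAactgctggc
Ccnb2, chr9:70421555-70421714, minus strand: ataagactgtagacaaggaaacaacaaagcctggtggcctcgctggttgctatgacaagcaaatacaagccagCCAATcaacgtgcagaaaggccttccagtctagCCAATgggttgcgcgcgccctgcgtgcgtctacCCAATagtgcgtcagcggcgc
Top2a, chr11:99024190-99024349, minus strand: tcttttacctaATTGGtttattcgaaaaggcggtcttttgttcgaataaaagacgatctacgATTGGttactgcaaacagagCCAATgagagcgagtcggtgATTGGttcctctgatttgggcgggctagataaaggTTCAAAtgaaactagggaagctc
Bub1, chr2:127831860-127832019, minus strand: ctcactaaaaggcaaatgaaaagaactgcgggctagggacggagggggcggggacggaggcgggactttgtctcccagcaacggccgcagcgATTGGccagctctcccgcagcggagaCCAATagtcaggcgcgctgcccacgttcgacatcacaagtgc
Kif11, chr19:37376222-37376381, plus strand: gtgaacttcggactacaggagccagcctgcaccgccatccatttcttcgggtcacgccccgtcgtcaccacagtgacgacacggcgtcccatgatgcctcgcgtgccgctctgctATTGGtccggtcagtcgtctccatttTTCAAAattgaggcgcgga
Hmmr, chr11:40733438-40733597, minus strand: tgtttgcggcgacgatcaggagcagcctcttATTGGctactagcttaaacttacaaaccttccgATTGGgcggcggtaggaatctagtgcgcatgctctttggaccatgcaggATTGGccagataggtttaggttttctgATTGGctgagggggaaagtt

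The libraries held 12071903 and 14421298 counts in Rif1_KO and 12768932 and 11724630 counts in WT. At least 10 counts were reached by 15226 and 16211 genes in Rif1_KO and by 13314 and 13566 genes in WT. Gene models of the rRNA region took 3.87% and 7.15% of the counts in Rif1_KO and 15.8% and 17.6% in WT. Rif1 itself was at 86.2 and 63.9 CPM (counts per 1000000, with library totals scaled by TMM) in the libraries labelled Rif1_KO, against 43.7 and 4.73 CPM in the libraries labelled WT. Both libraries labelled Rif1_KO were therefore above both labelled WT, as they were for 21.0% of all tested genes. The libraries labelled WT were 9.23-fold apart. The log2 fold change was 1.63 (SE 1.01, adjusted p = 0.717 by edgeR's quasi-likelihood test). The Rif1 level thus did not bear out the labels, although a count over the whole gene does not show whether an exon was deleted. Every direction given below is between libraries labelled Rif1_KO and WT. The germ cell markers, 15 genes, summed to 41.4 and 43.0 CPM in Rif1_KO and to 58.4 and 487 CPM in WT. Dazl, Ddx4 and Dppa3 made up most of the level in WT replicate 2, where Dazl stood at 196 CPM. Both Rif1_KO libraries were below both WT libraries for 4 of the 15 markers, where 18.4% of all tested genes were. The 4 markers were Dazl, Prdm14, Pou5f1 and Nanos3, of which Pou5f1 and Nanos3 had too few counts to be tested. Both Rif1_KO libraries were above both WT libraries for 2 of the 15, where 21.0% of all tested genes were. Prdm14 was at 0.452 and 0.106 CPM in Rif1_KO, against 19.9 and 18.4 CPM in WT. Prdm1 went the other way, at 0.904 and 17.7 CPM in Rif1_KO, against 0.276 and 0.322 CPM in WT. Ddx4, a defining germ cell gene, was at 1.05 and 0.53 CPM in Rif1_KO, against 0.645 and 59.2 CPM in WT, Pou5f1 did not exceed 1.2 CPM in any library, and Mael had 0 counts in Rif1_KO replicate 2. Of the 15 germ cell markers, 5 and 4 had under 10 counts in Rif1_KO, against 10 and 4 in WT. The 15 erythroid markers, mainly globins, summed to 9896 and 4270 CPM in Rif1_KO and to 138800 and 113100 CPM in WT, and the 10 stromal markers to 1619 and 1305 CPM in Rif1_KO and to 527 and 404.6 CPM in WT. The 12 supporting cell markers summed to between 437.1 and 524.4 CPM in the 4 libraries, the 9 endothelial markers to between 82.4 and 244 CPM and the 10 leukocyte markers to between 3.50 and 20.0 CPM. The part of this cell mixture in the mitotic gene values was not tested, and in bulk libraries fewer dividing cells and less mitotic RNA per cell cannot be told apart.

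All 37 mitotic genes were detected in every library, at between 1 and 2194 counts, and 26 of them had at least 10 counts in each. Summed over the 37 genes, the level was 1366 and 1354 CPM in Rif1_KO, against 1136 and 2114 CPM in WT. The Rif1_KO pair lay inside the range of the WT pair, whose members were the lowest and the highest of the 4 libraries. The ratio of the mean sums, Rif1_KO over WT, was 0.837, and it was not tested, since 2 libraries against 2 allow no exact permutation p smaller than 0.333. That ratio became 1.24 when CPM were taken on the library totals without TMM scaling, and it was 0.643 without WT replicate 1 and 1.2 without WT replicate 2. A list of 111 other mitotic genes summed to 3633 and 3526 CPM in Rif1_KO and to 3561 and 4120 CPM in WT. A list of 26 S phase genes summed to 1696 and 1659 CPM in Rif1_KO and to 1708 and 1050 CPM in WT. For the 37 genes WT replicate 2 had the highest sum and WT replicate 1 the lowest, and for the S phase genes WT replicate 2 had the lowest. On unscaled totals the highest share of the 37 genes was that of Rif1_KO replicate 2, and the other 2 positions held. Of the other mitotic genes, the TMM-scaled sum was highest in WT replicate 2 and lowest in Rif1_KO replicate 2. On unscaled totals their share was instead highest in Rif1_KO replicate 2 (0.462%) and lowest in WT replicate 1 (0.303%). The 10 genes of cell cycle exit, such as the CDK inhibitors, summed to 1162 and 946.4 CPM in Rif1_KO and to 1123 and 1257 CPM in WT.

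**Figure D1:**
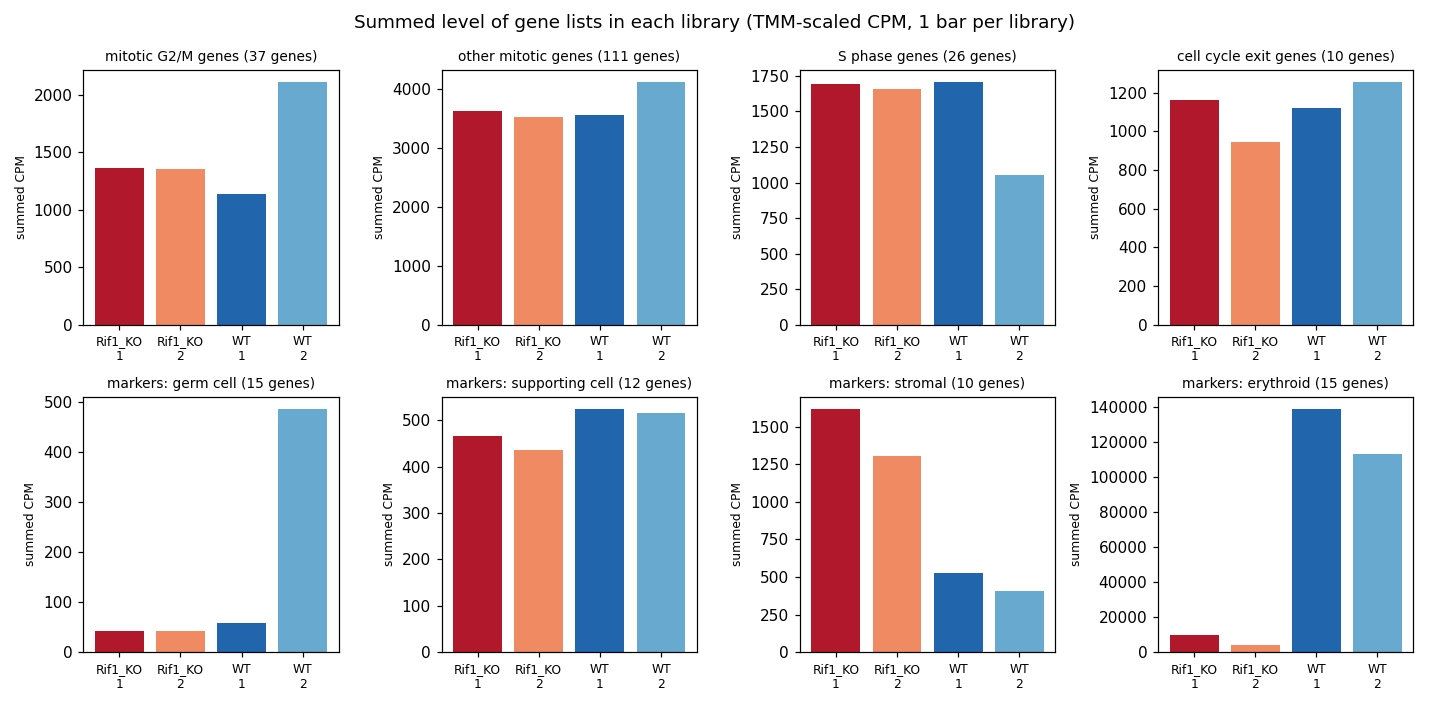
Bars give the summed level (TMM-scaled CPM, linear axes from 0) of the 37 mitotic G2/M genes, other cell cycle lists and cell type marker lists, 1 bar per library with Rif1_KO at the left. The mitotic sum was 1366 and 1354 CPM in Rif1_KO and 1136 and 2114 CPM in WT, while the erythroid sum was higher in both WT libraries.

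Levels between genes were compared per 1000 bases of exon. Averaged over the 4 libraries, Ccnb2 was the highest at 104 CPM per 1000 bases, followed by Cdc20 at 35.5, Birc5 at 28.1 and Spc25 at 27.0 on the same scale. The place of Cdc20 rested on WT replicate 2, where it was at 96.2 CPM per 1000 bases, against 26.9 or less in the other libraries. The lowest were Kif11 at 1.24 and Bub1b at 1.12 CPM per 1000 bases. Exon length of the 37 genes ran from 1531 to 15433 bases with a median of 4354, and the genes lay on 14 chromosomes. The level of a single gene in a single library ranged from 0.0921 CPM for Aurkb in WT replicate 1 to 223 CPM for Ccnb2 in WT replicate 2.

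**Figure D2:**
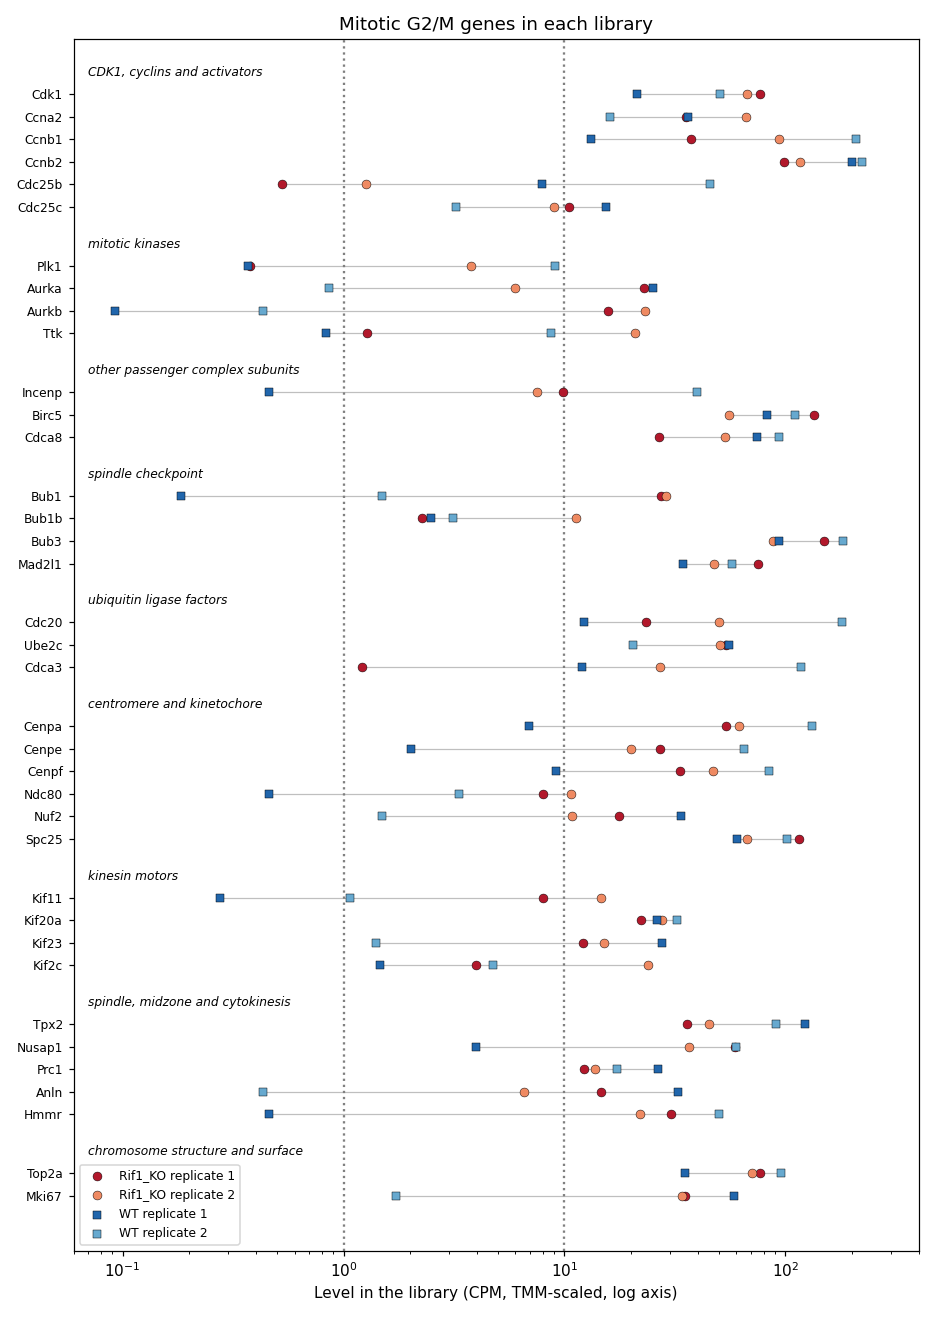
Each row is a mitotic G2/M gene, grouped by role, and each point its level in a library (TMM-scaled CPM, log axis). Rif1_KO points lie close together for most genes, whereas for Hmmr, Anln, Mki67 and Incenp the WT points lie far apart, as with 0.461 and 50.2 CPM for Hmmr.

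Of the 37 genes, 0 passed edgeR's quasi-likelihood test at an adjusted p of 0.05, where 0.0129% of the 15466 tested genes (2 globins) did. At an unadjusted p under 0.05 the same test gave 3 genes higher in Rif1_KO, against 5.35% of all tested genes, and 3 lower, against 3.05%. DESeq2 called 3 genes higher, Aurkb, Bub1 and Kif11, against a background of 2.26%. It called 1 gene lower, Cdc25b, against 1.3%. Both Rif1_KO libraries were above both WT libraries for 5 genes, Cdk1, Aurkb, Bub1, Ndc80 and Kif11, where 21.0% of all tested genes were. Both were below for 5 others, Ccnb2, Cdc25b, Cdca8, Tpx2 and Prc1, where 18.4% of all tested genes were, so neither count exceeded its background. The fitted log2 fold change was above 0 for 18 genes and below 0 for 19, with a median of -0.03, against -0.11 over all tested genes. That median was 0.83 with limma-voom, where all tested genes had 0.076, and 0.84 without WT replicate 2, where they had 0.285.

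The outcome depended on the WT libraries. With WT replicate 1 left out, edgeR's test called 7 of the 37 genes at an adjusted p of 0.05, 3 higher and 4 lower in Rif1_KO, against 7.17% of 18746 genes. With WT replicate 2 left out it called 6, all of them higher, against 4.76% of 18687 genes. In both fits the lone WT library was assumed to vary like the Rif1_KO pair. Only Aurkb, Bub1 and Ccnb1 were called in both fits, and Ccnb1 was called lower without WT replicate 1 (log2 fold change -1.62) and higher without WT replicate 2 (2.32). Leaving out either Rif1_KO library gave 0 calls among the 37 genes.

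**Figure D3:**
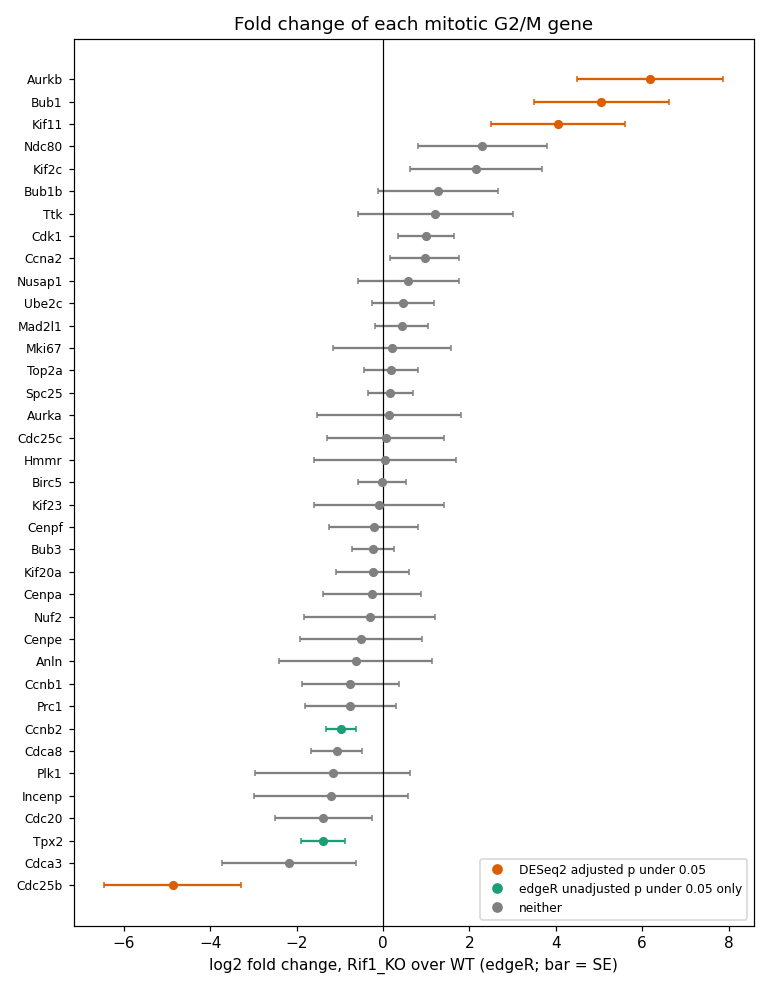
Points give the log2 fold change of each mitotic G2/M gene, Rif1_KO over WT, from edgeR's fit and bars its SE. The genes run from 6.18 for Aurkb to -4.87 for Cdc25b around a median of -0.03, and the colours mark the genes past the DESeq2 or the unadjusted edgeR threshold.

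Among CDK1, its cyclins and its activators, the groups did not overlap for Ccnb2, Cdc25b and Cdk1. Ccnb2 (chromosome 9, 70407692 to 70421547 in mm10, minus strand) encodes the Golgi-associated cyclin B2, a CDK1 partner. It was at 98.4 and 116 CPM in Rif1_KO, against 201 and 223 CPM in WT. Replicates lay within 1.18-fold of each other in both groups and the groups did not overlap. The log2 fold change was -0.98 (SE 0.35, adjusted p = 0.571 by edgeR's quasi-likelihood test). Cdc25b (chromosome 2, 131186949 to 131198497, plus strand) encodes the phosphatase that starts CDK1 activation. It was at 0.527 and 1.27 CPM in Rif1_KO, against 7.92 and 45.4 CPM in WT, from 7 and 24 counts against 86 and 422. The groups did not overlap, and the WT libraries themselves were 5.73-fold apart. The log2 fold change was -4.87 (SE 1.58, adjusted p = 0.571 by edgeR and 0.00303 by DESeq2).

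Cdk1, the mitotic kinase itself, was at 76.3 and 66.8 CPM in Rif1_KO, against 21.2 and 50.6 CPM in WT. Both Rif1_KO values were above both WT values, with a log2 fold change of 0.99 (SE 0.65, adjusted p = 0.734 by edgeR). Ccnb1, the main mitotic cyclin, was at 37.4 and 93.7 CPM in Rif1_KO, against 13.2 and 208 CPM in WT. The WT libraries held both the lowest and the highest value, 15.8-fold apart, and a log2 fold change of -0.76 (SE 1.12) had an adjusted p of 0.901 by edgeR. Pseudogenes of at least 95% identity exist for Ccnb1 and Mad2l1 among the GENCODE M21 transcripts, and those of Ccnb1 listed in the table had at most 25 counts in a library. Since only pairs with a mapping quality of at least 30 were counted, these counts do not show how many reads fit both copies. The part of such reads in the Ccnb1 and Mad2l1 levels was not tested. Ccna2, the S and G2 phase cyclin, was at 35.5 and 66.5 CPM in Rif1_KO, against 36.3 and 16.1 CPM in WT, and 510 of its exon bases are shared with the opposite strand gene Exosc9 in these unstranded counts. Cdc25c, which sustains CDK1 activation, was at 10.5 and 9.0 CPM in Rif1_KO, against 15.4 and 3.22 CPM in WT. Groups overlapped for both of these genes.

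Among the mitotic kinases, Aurkb had the highest fold change of the 37 genes. Aurkb encodes Aurora B, the enzyme of the chromosomal passenger complex, which corrects faulty kinetochore attachments. It was at 15.7 and 23.1 CPM in Rif1_KO, against 0.0921 and 0.43 CPM in WT, from 208 and 437 counts against 1 and 4 counts. Both WT libraries were near 0 and far below both Rif1_KO libraries. The log2 fold change was 6.18 (SE 1.68, adjusted p = 0.571 by edgeR and 0.000181 by DESeq2). It was between 5.51 and 7.6 on leaving out each library. Aurka, the Aurora A kinase of the spindle poles, was at 22.8 and 5.99 CPM in Rif1_KO, against 25.2 and 0.86 CPM in WT. Ttk, the MPS1 kinase that starts checkpoint signalling, was at 1.28 and 20.8 CPM in Rif1_KO, against 0.829 and 8.71 CPM in WT. For both kinases the replicates of each group lay further apart than the groups. Plk1, the Polo-like kinase, was at 0.377 and 3.76 CPM in Rif1_KO, against 0.368 and 9.03 CPM in WT, and was the only one of the 37 genes that reached 10 CPM in no library.

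None of the other subunits of the passenger complex was near 0 in both WT libraries. Incenp, the scaffold that binds and activates Aurora B, was at 9.87 and 7.52 CPM in Rif1_KO, against 0.461 and 39.9 CPM in WT, so the WT values enclosed the Rif1_KO values. Birc5 (survivin), which places the complex at the centromere, was at 134 and 55.6 CPM in Rif1_KO, against 82.2 and 111 CPM in WT. Cdca8 (borealin; chromosome 4, 124918465 to 124939311, minus strand) was at 26.7 and 53.5 CPM in Rif1_KO, against 74.7 and 93.4 CPM in WT. Only for Cdca8 among these subunits did the groups not overlap, with Rif1_KO below WT. Its log2 fold change was -1.07 (SE 0.59, adjusted p = 0.683 by edgeR). A stretch of 96 exon bases (1.85%) of Cdca8 is shared with an opposite strand gene.

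Among the spindle checkpoint genes Bub1 stood apart from its partners. Bub1 (chromosome 2, 127801122 to 127831865, minus strand) encodes the kinase that recruits checkpoint proteins to kinetochores. It was at 27.4 and 28.7 CPM in Rif1_KO, against 0.184 and 1.5 CPM in WT, from 363 and 541 counts against 2 and 14 counts. The Rif1_KO pair lay within 1.05-fold and both WT libraries were far below it. The log2 fold change was 5.05 (SE 1.56, adjusted p = 0.571 by edgeR and 0.00239 by DESeq2). Its binding partner Bub3 was at 149 and 87.4 CPM in Rif1_KO, against 93.9 and 182 CPM in WT. Mad2l1, the MAD2 inhibitor of CDC20, was at 75.5 and 47.6 CPM in Rif1_KO, against 34.5 and 57.0 CPM in WT. Bub1b, which encodes BUBR1 of the mitotic checkpoint complex, was at 2.26 and 11.3 CPM in Rif1_KO, against 2.49 and 3.12 CPM in WT. The groups overlapped for Bub3, Mad2l1 and Bub1b.

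**Figure D4:**
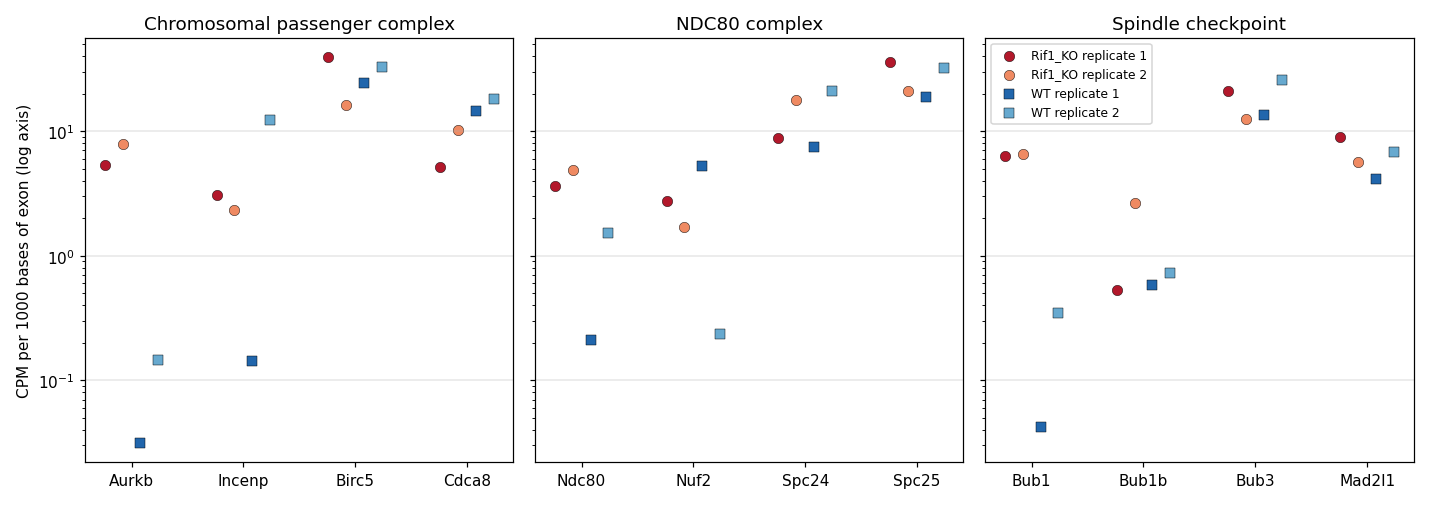
Points give the level per library (CPM per 1000 bases of exon, log axis) of the 4 subunits of the chromosomal passenger complex, the 4 of the NDC80 complex and 4 spindle checkpoint genes. Both WT libraries were low for Aurkb and Bub1, while Birc5, Cdca8, Bub3 and Mad2l1 stayed above 4 CPM per 1000 bases in all 4 libraries, Incenp was low in WT replicate 1 alone (0.143) and Bub1b was at 0.529 to 2.65 throughout.

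The 3 genes of ubiquitin ligases, Cdc20 and Ube2c of the anaphase-promoting complex and Cdca3 of the SCF ligase, summed to 78.7 and 128 CPM in Rif1_KO, against 79.6 and 317 CPM in WT. Cdc20, the activator that the checkpoint holds back, was at 23.4 and 50.2 CPM in Rif1_KO, against 12.3 and 180 CPM in WT. Cdca3, a factor that helps degrade the mitosis inhibitor WEE1, was at 1.21 and 27.1 CPM in Rif1_KO, against 12 and 117 CPM in WT. Ube2c, the ubiquitin-conjugating enzyme of the complex, was at 54.0 and 50.3 CPM in Rif1_KO, against 55.4 and 20.4 CPM in WT. WT replicate 2 was therefore the highest library for Cdc20 and Cdca3 and the lowest for Ube2c, and the groups overlapped for all 3.

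Of the 6 centromere and kinetochore genes, only Ndc80 had groups that did not overlap. Ndc80 (chromosome 17, 71496100 to 71526857, minus strand), the microtubule-binding subunit of the outer kinetochore, was at 7.99 and 10.7 CPM in Rif1_KO, against 0.461 and 3.33 CPM in WT. Its log2 fold change was 2.30 (SE 1.5, adjusted p = 0.734 by edgeR). Its partner Nuf2 was at 17.6 and 10.8 CPM in Rif1_KO, against 33.5 and 1.5 CPM in WT, and so the low WT library for Nuf2 was replicate 2 whereas for Ndc80 it was replicate 1. Spc25, which anchors the same complex to the inner kinetochore, was at 115 and 67.3 CPM in Rif1_KO, against 60.3 and 102 CPM in WT. The fourth subunit, Spc24, from the list of other mitotic genes, was at 22.8 and 46.1 CPM in Rif1_KO, against 19.1 and 54.5 CPM in WT. The Rif1_KO values of Spc25 and Spc24 overlapped those of WT. Cenpa, the centromeric histone, was at 54.0 and 61.6 CPM in Rif1_KO, against 6.91 and 132 CPM in WT. Cenpe, the kinetochore motor, was at 27.0 and 20.1 CPM in Rif1_KO, against 2.03 and 65.1 CPM in WT. Cenpf, a large outer kinetochore protein, was at 33.2 and 47.0 CPM in Rif1_KO, against 9.12 and 84.3 CPM in WT. For Cenpa, Cenpe and Cenpf alike WT replicate 1 was the lowest of the 4 libraries and WT replicate 2 the highest.

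Among the kinesins, Kif11 was near 0 in WT. Kif11 (chromosome 19, 37376403 to 37421859, plus strand) encodes EG5, the motor that pushes the spindle poles apart. It was at 7.99 and 14.6 CPM in Rif1_KO, against 0.276 and 1.07 CPM in WT, from 106 and 275 counts against 3 and 10 counts. Both WT libraries were below both Rif1_KO libraries, with a log2 fold change of 4.05 (SE 1.54, adjusted p = 0.577 by edgeR and 0.0368 by DESeq2). Kif2c, the microtubule-depolymerising motor MCAK, was at 3.99 and 23.8 CPM in Rif1_KO, against 1.47 and 4.73 CPM in WT. Kif23, the midzone motor of cytokinesis, was at 12.1 and 15.1 CPM in Rif1_KO, against 27.7 and 1.4 CPM in WT. Kif20a, which carries the passenger complex to the midzone, was at 22.1 and 27.5 CPM in Rif1_KO, against 26.2 and 32.2 CPM in WT. Groups overlapped for these 3 motors, and 33.2% of the exon length of Kif20a is shared with the opposite strand gene Cdc23.

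Of the spindle, midzone and cytokinesis genes, Tpx2 and Prc1 were lower in both Rif1_KO libraries than in both WT libraries. Tpx2 (chromosome 2, 152847964 to 152895321, plus strand), which activates Aurora A and nucleates spindle microtubules, was at 35.9 and 44.9 CPM in Rif1_KO, against 122 and 90.5 CPM in WT. Its replicates lay within 1.34-fold in each group, and the log2 fold change was -1.39 (SE 0.51, adjusted p = 0.573 by edgeR and 0.454 by DESeq2). Prc1, which bundles midzone microtubules, was at 12.3 and 13.7 CPM in Rif1_KO, against 26.6 and 17.3 CPM in WT, and shares 11.1% of its exon length with Rccd1. Nusap1, a spindle microtubule stabiliser, was at 58.9 and 36.6 CPM in Rif1_KO, against 3.96 and 59.9 CPM in WT. Both Rif1_KO values of Nusap1 lay between the WT values. Anln (anillin), a scaffold of the cytokinetic ring, was at 14.7 and 6.57 CPM in Rif1_KO, against 32.5 and 0.43 CPM in WT. Hmmr, a hyaluronan receptor that also binds the spindle, was at 30.4 and 21.9 CPM in Rif1_KO, against 0.461 and 50.2 CPM in WT. For Anln and Hmmr the WT libraries were 75.6-fold and 109-fold apart, with the low library being replicate 2 for Anln and replicate 1 for Hmmr.

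The groups overlapped for the proliferation markers Top2a and Mki67. Top2a, the topoisomerase that untangles sister chromatids, was at 76.7 and 70.8 CPM in Rif1_KO, against 35.0 and 95.1 CPM in WT (log2 fold change 0.18, SE 0.62, adjusted p = 0.971 by edgeR). Mki67, which coats mitotic chromosomes, was at 35.0 and 34.2 CPM in Rif1_KO, against 58.4 and 1.72 CPM in WT (log2 fold change 0.20, SE 1.37, adjusted p = 0.987 by edgeR). The WT libraries ran in opposite orders for these genes, Top2a being higher in replicate 2 and Mki67 in replicate 1.

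Replicate spread was compared over the 36 genes with at least 10 CPM in some library, after adding 0.1 CPM. The median ratio between replicates was 1.53-fold in Rif1_KO, against 1.63-fold over all such genes, and 5.15-fold in WT, against 2.41-fold over all such genes. Replicates lay over 4-fold apart for 4 of the 36 genes in Rif1_KO (11.1%, against 13.4% of all genes) and for 19 in WT (52.8%, against 36.8%). They lay over 10-fold apart for Cdca3 and Ttk in Rif1_KO (5.56%, against 4.71% of all genes). In WT this held for 12 genes (33.3%, against 22.7%), 7 of them low in replicate 1 and 5 low in replicate 2. WT replicate 1 was the lower WT library for 26 of the 36 genes (72.2%, against 49.2% of all genes). The genes over 10-fold apart and low in WT replicate 2 were Mki67, Nuf2, Kif23, Aurka and Anln. A wide WT spread was shared by 92 other mitotic genes with at least 10 CPM in some library. Their median WT ratio was 3.31-fold, with 45.7% over 4-fold and 34.8% over 10-fold apart. WT replicate 1 was the lower WT library for 50% of these other mitotic genes.

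**Figure D5:**
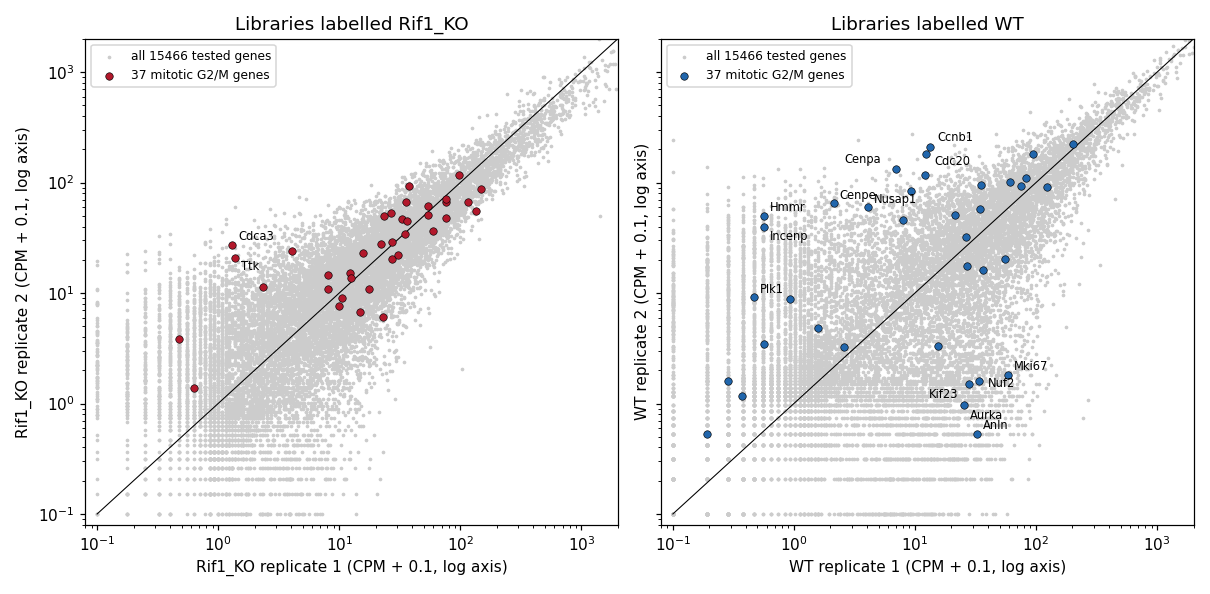
Each panel plots replicate 2 against replicate 1 (CPM + 0.1, log axes) for the tested genes in grey and the 37 mitotic G2/M genes in colour, with the line of equality. The mitotic genes lie along the line in Rif1_KO, with a median ratio of 1.53-fold, and scatter on both sides of it in WT, with a median ratio of 5.15-fold.

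Dropout of a transcript was counted where a gene was under 1 CPM in a library and at 10 CPM or more in another. It occurred for 10 of the 36 genes (27.8%), against 23.7% of 10518 genes, so the mitotic genes were near the background. Without WT replicate 1 it was 4 genes (all genes 14.1%), and without WT replicate 2 it was 6 (all genes 13.1%). In 4 of the 10 genes, the high library carried the same label (11.1% of 36, against 13.9% of all genes). Aurka and Anln were under 1 CPM in WT replicate 2, and Incenp and Hmmr in WT replicate 1. By library, 1 gene dropped out in Rif1_KO replicate 1 (2.78%, against 6.23% of all genes) and 0 in Rif1_KO replicate 2 (against 3.71%), while 7 did in WT replicate 1 (19.4%, against 11%) and 3 in WT replicate 2 (8.33%, against 10.7%). The highest library of the 10 genes was at between 10.7 and 50.2 CPM. Aurkb, Bub1 and Kif11, called higher by DESeq2, were among these 10 genes, as was Cdc25b, called lower, and the part of dropout in their fold changes was not tested.

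The rest of the mitotic machinery was read from the list of 111 other genes, of which 108 were tested. Of these, 0 passed edgeR's test, an unadjusted p under 0.05 was reached by 7 that were higher (5.35% of all tested genes) and 2 that were lower (3.05%), DESeq2 called 3 higher (2.26%) and 0 lower (1.3%), and the median log2 fold change was 0.01. The 6 with the smallest p had adjusted p-values of 0.571 to 0.577 by edgeR. Melk, a kinase of proliferating cells, was at 12.1 and 13.7 CPM in Rif1_KO, against 0.645 and 1.18 CPM in WT. Cenpu, a subunit of the inner kinetochore, was at 13.2 and 17.7 CPM in Rif1_KO, against 0.553 and 1.61 CPM in WT. Lin52, a MuvB subunit, was at 3.24 and 18.1 CPM in Rif1_KO, against 0.184 and 0.645 CPM in WT. These were the 3 genes that DESeq2 called. Cdca5 (sororin), which protects sister cohesion, was at 0.904 and 14.2 CPM in Rif1_KO, against 0.368 and 0.215 CPM in WT. Nsl1, a kinetochore subunit, was at 1.28 and 2.12 CPM in Rif1_KO and had 0 counts in both WT libraries. Ncapd3, a condensin II subunit, alone of these 6 genes was lower in Rif1_KO, at 11.2 and 9.69 CPM, against 64.4 and 36.1 CPM in WT. Over the 108 tested genes of the list, the fitted log2 fold change was above 0 for 54 and below 0 for 54. Of the 26 S phase genes, 0 were past an unadjusted p under 0.05 by edgeR in either direction, DESeq2 called 0 higher and 1 lower, and the median log2 fold change was 0.47.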

How the data were processed

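The deposited table holds whole-number counts per gene for 4 libraries. Per the file headers, the authors counted read pairs with featureCounts 1.6.2 on GENCODE M17 with a mapping quality of at least 30, for every overlapping gene and with no strand option, so shared exons are counted for each gene. HISAT2, SAMtools, Trim Galore and FastQC were used with mm10, per the submitters' processing notes. All 4 columns were used. Groups follow the genotype label and replicate numbers the titles.

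Genes were filtered with filterByExpr (minimum count 10), scaled with TMM factors (1.107 and 1.319 for Rif1_KO, 0.856 and 0.8 for WT) and tested with edgeR 4.0.16 in R 4.3.3, by the quasi-likelihood test with Benjamini-Hochberg adjustment over all 15466 tested genes at 0.05. The biological coefficient of variation was 0.842. Fold changes are log2 of Rif1_KO over WT, with an SE equal to their size over the square root of F. DESeq2 1.42.0 and limma-voom (limma 3.58.1), other scalings and filters, a replicate block and leaving out each library were alternatives. The scripts were tested on simulated data. Replicates differed by more than sampling noise, with a chi-square per degree of freedom of 43.6 in Rif1_KO and 50.8 in WT.

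Full statistics were given by rule for the 8 genes with the smallest p. Per-library values were given by rule for them, for genes with dropout and for Cdk1, Ccnb1, Top2a and Mki67, for which a fold change was added, and the other members were added to account for all 37. The 37 genes and the comparison lists were chosen with earlier results of these data known. Transcripts with near-identical copies were found by aligning GENCODE M21 transcripts at 90% identity or more over at least 300 bases. Of the 37 genes, 14 had such a match to a transcript of another gene, and 2 had a pseudogene of at least 95% identity.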

Additional observations from a re-analysis of the deposited data

How the results depend on the processing

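The number of genes called by edgeR was 2, and it became 0 with upper-quartile factors, 0 with totals without haemoglobin, rRNA-region and mitochondrial genes, 0 with a minimum count of 50 and 54 with no filter, while DESeq2 called 519. Leaving out each library gave 5 to 1345 genes, 0 to 7 of the 37 mitotic genes and 0 to 14 of the other mitotic genes. DESeq2 called 4 of the 37 and 3 of the others. The median log2 fold change of the 37 genes was 0.83 with limma-voom and -0.18 to 0.84 on leaving out each library. The summed level ratio was 1.24 on unscaled totals and 0.643 to 1.2 on leaving out each library, and 4 to 9 of the 37 genes then had dropout. Leaving out libraries for the sum and for dropout was chosen after seeing the data.

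Replicate numbers did not pair the libraries (r = -0.0234 between deviations, across 15466 genes). With a replicate block, 7 genes were called, 0 of the 37, and their median log2 fold change was 0.87.

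Of 24 named genes under 285 alternative results, 249 kept direction and side of the threshold (Nsl1, with no adjusted p by DESeq2, by direction only), 17 kept direction and passed it newly, and 19 changed sign, of which 1 (Ccnb1 without WT replicate 2) also passed it. All that changed sign were of genes with overlapping groups. Log2 fold changes turned to 1.26 for Anln, 0.40 for Ccnb1 and 0.90 for Incenp with limma-voom, and to 1.26, 0.17 and 0.87 with the replicate block. That of Hmmr turned to -0.03 with each of edgeR's RLE scaling factors, a minimum count of 50 and DESeq2. Leaving out each library gave ranges of -1.6 to 4.65 for Anln, -1.07 to 4.1 for Aurka, -1.62 to 2.32 for Ccnb1, -0.89 to 5.81 for Hmmr, -2.15 to 4.22 for Incenp, -0.75 to 4.37 for Mki67, -0.32 to 1.08 for Top2a and -1.8 to 3.72 for Ttk. The causes were not tested. Scaling alone moved the median of all genes, which was 0.164 under upper-quartile scaling, -0.195 under edgeR's RLE scaling and -0.111 under TMM, and fold changes are read relative to it. The WT values near 0 of Aurkb, Bub1 and Kif11 rest on only 1 to 14 counts each, and the part of depth in them was not tested.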
